A study of Homo sapiens with 20 samples.

Results

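This account covers the H3K27ac regions that were called only after loss of MLL4. H3K27ac peaks of 4 ChIP-seq libraries were merged wherever they overlapped by at least 1 bp on chromosomes 1 to 22, and a region was taken as knockout-only when it held a peak in both MLL4-knockout libraries and in neither wild-type library. By this rule 1050 of the 211208 merged regions (0.497%), or 3.36% of the 31265 regions called in both knockout lists, were knockout-only. The members were thus chosen by the H3K27ac calls themselves, so the number of regions and their H3K27ac values are a description with no test.

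The cells were HCT116, a human colorectal carcinoma line, as wild type (genotype MLL4WT, here WT) and with MLL4 knocked out (MLL4KO, here KO), both obtained from another laboratory and grown in the same medium with no treatment named. Whether the KO cells were 1 clone or a pool, and whether replicates came from separate cultures, is not given in the sources used here, so the spread between replicates may be technical. Duplicate libraries (2 for each genotype) exist for H3K27ac, for p53 and for H3K4me3. Only 1 for each genotype exists for H3K4me1, MLL1 and MLL4, so those comparisons have no replicate check. The study asked how MLL4 and p53 cooperate on chromatin at enhancers and promoters.

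MLL4, encoded by KMT2D, is a methyltransferase that places H3K4me1 on enhancers and works with the acetyltransferases that place H3K27ac, the mark of active enhancers and promoters. MLL1, encoded by KMT2A, is a related methyltransferase of the same family, found mostly at promoters, which carry H3K4me3. p53 is the tumour suppressor that binds promoters and enhancers of stress-response genes. An H3K27ac region that appears when MLL4 is lost runs opposite to the loss of acetylation for which MLL4 deletion is known.

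The H3K27ac lists held 137489 and 196645 autosomal peaks in WT replicates 1 and 2, and 64367 and 61228 in KO replicates 1 and 2. The WT libraries stood apart from each other at the regions nearest to the rule. Of regions called in both KO lists and in a single WT list, 915 were in WT replicate 1 and 606 in WT replicate 2, although the second list was the longer. Where both KO lists gave 5-fold enrichment or more, the counts were 364 for WT replicate 1 and 50 for WT replicate 2, and at 10-fold or more they were 46 and 0. With WT replicate 1 left out the rule returned 2088 regions, and with WT replicate 2 left out it returned 1727. H3K4me3 lay at the starts of 6 of 7 epithelial markers in all 4 H3K4me3 lists, KRT8 having it only in WT, and at those of PTPRC, CD3E, PECAM1, VWF and MYH6 in none. The blood factor gene SPI1 and the fibroblast gene COL1A1 had it in all 4 lists, PDGFRB, another fibroblast gene, in WT replicate 1 and both KO lists, and the neuronal RBFOX3 in KO replicate 1 only. The part of these in the results was not tested.

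Most knockout-only regions were distal, but 31 promoter windows of the RefSeq table (250 bases before to 50 after a start, GRCh38.p14) overlapped one. In 14 of them, 7 of protein-coding genes and 7 of long noncoding RNAs, all 250 bases before the start lay inside the region. These windows give DNA from inside members, but a region call does not place the acetylation on these bases. Both strands were searched for AP-1 (TGANTCA), CRE (TGACGTCA), the TATA box (TATAAA), ETS (CCGGAA), TEAD (GGAATG), TCF/LEF (ATCAAAG) and GC box (GGGCGG) letters, and matches are in capitals, a match being a description and not a site. An AP-1 match was present in 5 of the 14 windows, beside 6.57% of 35116 promoter windows of the same length. The 35116 windows were not matched to the 14 in base composition or type of gene, and windows of retained regions were not set beside them. The letters were chosen after the data were seen, and no test was made. Printed 5′ to 3′ are the window inside the region with the highest fold of the 14, on chr1:219433049-219433298 (minus strand), which holds 1 TEAD match; 4 of the 5 with an AP-1 match, from chr2:223488818-223489067 (plus), chr9:12814390-12814639 (minus, also a TATA match), chr13:97141584-97141833 (plus, with 2 AP-1 matches) and chr21:34526823-34527072 (minus, also a CRE and a TATA match); and, for contrast, the start of TANK at chr2:161136713-161136962 (plus), with no match.
LOC107984018: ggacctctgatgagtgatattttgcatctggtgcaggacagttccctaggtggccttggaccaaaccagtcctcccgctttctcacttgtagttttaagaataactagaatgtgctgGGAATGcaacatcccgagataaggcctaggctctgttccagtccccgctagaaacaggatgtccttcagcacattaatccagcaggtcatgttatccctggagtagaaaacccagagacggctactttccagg
LOC105373907: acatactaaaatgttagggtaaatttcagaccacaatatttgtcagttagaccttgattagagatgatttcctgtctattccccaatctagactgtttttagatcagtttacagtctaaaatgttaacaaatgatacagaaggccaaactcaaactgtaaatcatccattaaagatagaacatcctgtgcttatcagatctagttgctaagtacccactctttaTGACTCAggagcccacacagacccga
LURAP1L-AS1: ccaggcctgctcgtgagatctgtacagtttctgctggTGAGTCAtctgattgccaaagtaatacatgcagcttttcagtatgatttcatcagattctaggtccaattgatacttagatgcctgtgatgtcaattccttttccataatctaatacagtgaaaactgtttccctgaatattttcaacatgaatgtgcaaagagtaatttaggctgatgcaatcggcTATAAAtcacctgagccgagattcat
MBNL2: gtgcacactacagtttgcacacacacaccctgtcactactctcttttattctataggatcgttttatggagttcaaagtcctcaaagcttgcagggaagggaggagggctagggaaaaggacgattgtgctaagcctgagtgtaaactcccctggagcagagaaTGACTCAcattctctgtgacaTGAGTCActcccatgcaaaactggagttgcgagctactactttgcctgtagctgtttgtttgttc
RCAN1: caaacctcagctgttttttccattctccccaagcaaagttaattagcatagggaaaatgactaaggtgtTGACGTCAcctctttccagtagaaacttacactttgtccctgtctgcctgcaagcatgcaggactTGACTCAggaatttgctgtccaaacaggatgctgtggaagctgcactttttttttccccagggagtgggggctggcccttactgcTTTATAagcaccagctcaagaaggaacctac
TANK: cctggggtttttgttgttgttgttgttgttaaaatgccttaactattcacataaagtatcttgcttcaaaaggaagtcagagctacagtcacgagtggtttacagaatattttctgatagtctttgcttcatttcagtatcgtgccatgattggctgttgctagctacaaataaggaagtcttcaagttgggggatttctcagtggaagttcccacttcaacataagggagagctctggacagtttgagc

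LOC107984018 and LOC105373907 are starts of noncoding RNAs in the clusters of knockout-only regions near LYPLAL1 and SCG2 described further on. MBNL2 encodes a splicing regulator, RCAN1 a regulator of calcineurin, and TANK a scaffold of innate immune signalling. H3K27ac fold enrichment over local background, as the authors' peak caller gave it, was 12.003 and 17.11 in KO replicates 1 and 2 at the LOC107984018 window, 7.86 and 8.10 at LOC105373907, and 7.24 and 10.26 at LURAP1L-AS1. It was 7.04 and 8.29 at MBNL2, 3.88 and 5.90 at RCAN1, and 5.14 and 8.95 at TANK. None of the 14 windows held a GC box match, beside 42.6% of all promoter windows. TATA was matched in those of LURAP1L-AS1, LOC105369165, RCAN1 and LOC107984521, beside 10.7% of all promoter windows. TEAD was matched in that of LOC107984018 alone (11.9% of all) and ETS in that of ALPK1 alone (14.5%). TCF/LEF was matched in that of CLCN3 alone (2.26%) and CRE in that of RCAN1 alone (1.65%).

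The regions were weak and narrow. Their median fold was 4.14 in KO replicate 1 and 4.63 in KO replicate 2, where the 28694 regions retained in all 4 lists had 6.53 and 6.63. The lower of both KO folds ran from 1.34 to 18.06 with a median of 3.93, and it reached 10 in 5 of the 1050 regions, against 9365 (32.6%) of the retained ones. The fold was higher in KO replicate 2 in 740 regions. The median width was 582 bp (quartiles 446 and 831), beside 2267 bp in retained regions and 807 bp in the 58511 regions lost, that is called in both WT lists and no KO list. Retained regions were merged from all 4 lists and members from KO lists alone, and a region's fold is its highest peak's. The contrast in width and fold is thus set in part by the rule. At the edge of the rule, regions near MAGOH, CCDC77 and MYL12B were members with a −log10 q-value of 1.31 in KO replicate 1, while regions near IPO13, BDH1 and CD14 were left out by a WT peak at 1.34. A WT H3K27ac peak lay within 1 kb of 493 members and between 1 and 10 kb from 373, and 184 were 10 kb or more from any.

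**Figure D1:**
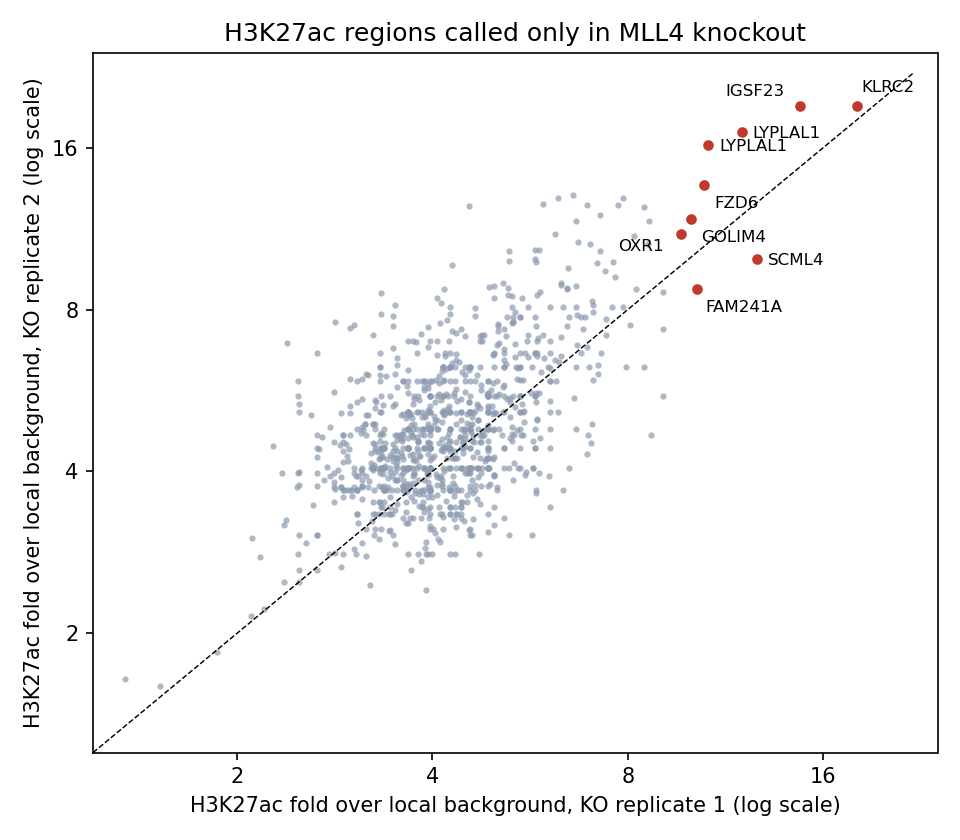
H3K27ac fold over local background at each of the 1050 knockout-only regions in KO replicate 1 (horizontal, log scale) and KO replicate 2 (vertical, log scale), 1 point per region, with equal values on the dashed line. Of the 10 regions with the highest lower fold, 9 are in red with their nearest gene, and most points lie between 3- and 6-fold and above the line.

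The region with the highest lower fold lay over an end of KLRC2, which encodes an activating receptor of natural killer cells, at chr12:10435183-10436259, with H3K27ac folds of 18.06 and 19.11 in the KO libraries. KLRC2 has near-identical neighbours, so the assignment of reads there is uncertain. This region had an H3K4me1 peak in KO (4.84-fold) and none in WT, and H3K4me3 peaks of 5.68-fold and 4.54-fold in WT and 6.90-fold in KO replicate 1. The second, at chr19:44587708-44589184, was 24379 bp from IGSF23, an immunoglobulin superfamily gene, with 14.76 and 19.11. It had H3K4me1 in both genotypes and a p53 peak in KO replicate 1 only (5.48-fold). A WT H3K27ac peak ended 275 bp from it.

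Next came 2 regions near LYPLAL1, a lysophospholipase-like gene, with 12.003 and 17.11 at chr1:219431282-219433926 inside the gene span and 10.65 and 16.20 at chr1:219506136-219507324. Near FZD6, a Frizzled receptor of Wnt ligands, the region at chr8:103279633-103282523 had 10.48 and 13.65, and it held an MLL4 peak in WT (4.17-fold). Inside GOLIM4, a Golgi membrane protein gene, chr3:168023412-168026164 had 10.00 and 11.77, and the nearest WT peak was 29944 bp away. Of these 3 genes' regions, only the one inside LYPLAL1 had H3K4me1 in KO (3.49-fold), and all 4 had it in WT.

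The region inside SCML4, a Polycomb-like gene, had 12.66 and 9.94, and it carried H3K4me3 in every list. The H3K4me3 fold was 65.78 and 41.00 with the knockout, above the 20.78 and 15.42 of the wild type. Those near OXR1, an oxidative stress resistance gene (9.66 and 11.04), and FAM241A (10.21 and 8.72) had no H3K4me1 peak in KO. None of these 9 regions, from KLRC2 to FAM241A, had an MLL1 peak in either genotype.

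H3K4me1 was present at most of these places in WT cells and at fewer in KO cells. In WT 777 members (74.0%, 95% Wilson interval 71.3 to 76.6) overlapped an H3K4me1 peak, beside 51.1% of all H3K27ac regions, and in KO 413 (39.3%, 36.4 to 42.3), beside 13.2%. Both genotypes had the mark at 353 members, WT alone at 424, KO alone at 60 and neither at 213. The KO-alone state took 5.71% of members (4.47 to 7.29), beside 0.630% of all regions, 0.864% of retained and 0.407% of lost ones. Of the WT-marked members 45.4% kept a KO peak, beside 62.5% of WT-marked retained regions and 7.55% of WT-marked lost ones. These intervals cover counting error only, and regions of 1 library share that library.

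Wide regions overlap more peaks, and the comparison with retained regions turned on width. Over whole regions the KO H3K4me1 share was lower in members (39.3%) than in retained regions (58.6%). In a window of 500 bp at each centre, chosen after the data were seen, it was higher in members, 37.5% (34.7 to 40.5) against 29.6% (29.1 to 30.1). Between the members' own width quartiles, 38.8% (34.7 to 43.0) of 526 members and 34.3% (32.1 to 36.5) of 1753 retained regions had it, and the intervals overlapped. Of the retained regions of that width 1.14% had H3K4me1 in KO alone. The lost regions of that width had a KO peak in 3.71%.

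**Figure D2:**
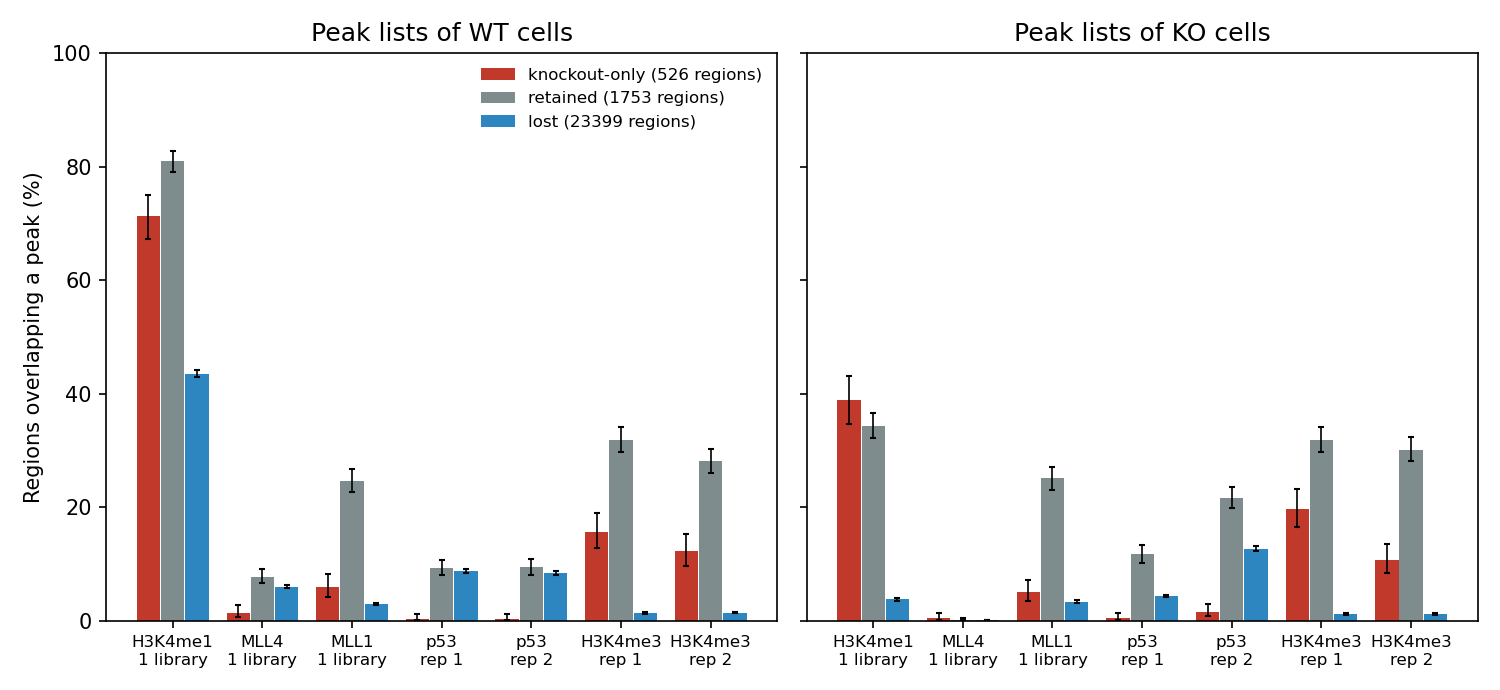
Share of regions (%) that overlap a peak of each other target, in WT lists on the left and KO lists on the right, for knockout-only, retained and lost H3K27ac regions whose width lies between the quartiles of the knockout-only ones; bars with 95% Wilson intervals. The knockout-only regions stand at 38.8% for KO H3K4me1, near the retained 34.3%, but at 4.94% for KO MLL1, where retained regions stand at 25.04%.

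MLL4 peaks of WT cells rarely overlapped these places. An MLL4 peak in WT overlapped 19 members (1.81%, 1.16 to 2.81), beside 10.5% of all H3K27ac regions, 37.4% of retained and 9.93% of lost ones. At matched width the shares were 1.33% (0.646 to 2.72) in members, 7.70% (6.54 to 9.04) in retained and 5.94% (5.65 to 6.25) in lost regions. A WT MLL4 peak within 1 kb was more common, at 7.14% of members (5.74 to 8.86), beside 15.7% of all, 41.6% of retained and 15.5% of lost regions, so the order held. In KO, 8 members (0.762%) overlapped 1 of the 257 autosomal peaks of the MLL4 library, beside 0.0260% of all regions. These 8 had lower KO H3K27ac folds from 1.34 to 4.26, and 6 of them also had p53 peaks in both KO lists. By position most of them lie near centromeres, where repeated sequence can make the placement of reads uncertain. No repeat annotation was used, and what these calls mean was not tested. An example at chr12:37235344-37238105, 1078580 bp from the nearest gene, ALG10B, had H3K27ac folds of 1.86 and 1.84, MLL4 folds of 5.91 in WT and 2.77 in KO, and p53 folds from 2.51 to 4.14 in all 4 lists.

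MLL1 was called at fewer members in KO than in WT, with 1 library each. It overlapped 82 in WT (7.81%, 6.34 to 9.59), beside 10.0% of all regions, and 53 in KO (5.05%, 3.88 to 6.54), beside 10.2%. It was called in both genotypes at 21, in WT alone at 61 and in KO alone at 32. In retained regions the shares were 53.3% in WT and 54.5% in KO, and at matched width 24.6% and 25.04%. Within 1 kb the order against all regions turned: an MLL1 peak lay there at 21.5% of members in WT (19.1 to 24.1), beside 13.9% of all regions, and at 16.5% in KO (14.4 to 18.8), beside 13.7%. Retained regions stood at 56.9% and 57.8% by that measure. KO H3K4me1 and KO MLL1 coincided at 47 members. This overlap and the split of MLL1 by genotype were counted in members only, so neither has a share over all regions beside it.

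p53 was called at few members in any list. WT replicates 1 and 2 had p53 at 7 and 6 members, and KO replicates 1 and 2 at 9 and 18. The WT mean was 6.50 ± 0.707 members and the KO mean 13.5 ± 6.36 (SD over the 2 libraries of a genotype). Both KO lists were above both WT lists, with a log2 difference of 0.93 (of the number plus 0.5), but an exact two-sided permutation test of 2 against 2 libraries gave p = 0.333, the smallest it allows. The p53 lists held 36046 and 31953 autosomal peaks in WT replicates 1 and 2 and 24766 and 61530 in KO replicates 1 and 2. The longest list had the most members, and KO replicate 1, the shortest, had 9 beside the 7 and 6 of WT. Whether list length bears on these counts was not tested. p53 was in both WT lists at 5 members, beside 9.48% of all H3K27ac regions, and in either at 8, beside 12.6%. In KO it was in both lists at 8 (0.762%), beside 8.38%, and in either at 19 (1.81%), beside 18.6%. In retained regions of matched width each p53 list reached 9.24% to 21.6%. Without the 8 members with a KO MLL4 peak, left out after the data were seen, each WT library had p53 at 2 members and the KO libraries at 3 and 11.

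The 3 members with H3K4me1, MLL1 and both p53 lists in KO were 1 inside SOX6, a transcription factor gene of the SOX family, and 2 far from any gene, which are among the 8 with a KO MLL4 peak and carry the same doubt on read placement. The SOX6 region at chr11:16605218-16605600 had H3K27ac folds of 4.25 and 4.42 in KO, and p53 folds of 6.39 and 9.80 in WT and 6.21 and 8.08 in KO. Its MLL1 fold was 4.54 in WT and 14.25 in KO, from 1 library each, and H3K4me1 was 6.90 and 4.26. The other two are the one described near ALG10B and 1 at chr5:49621628-49624268, whose nearest gene was EMB, with H3K27ac folds of 2.83 and 2.82 and an MLL4 peak in both genotypes.

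H3K4me3 was absent from 820 members (78.1%, 75.5 to 80.5) in every list. It overlapped 154 and 125 members in WT replicates 1 and 2 and 205 and 102 in KO, so the KO libraries lay on both sides of the WT ones (WT mean 139.5 ± 20.5, KO mean 153.5 ± 72.8, SD over 2 libraries). The log2 difference was 0.06 with p = 1 by the same exact permutation test, and its sign changed when WT replicate 2 or KO replicate 1 of H3K4me3 was left out (−0.09 and −0.44). At least 1 WT list had it at 178 members (16.95%), beside 10.1% of all, 56.5% of retained and 2.26% of lost regions. At least 1 KO list had it at 205 (19.5%), beside 9.36% of all, 53.8% of retained and 1.30% of lost regions. Members thus carried H3K4me3 more often than all regions and less often than retained ones. In all, 599 members (57.0%, 54.03 to 60.01) had no KO peak of H3K4me1, H3K4me3, MLL1 or p53, and 191 had no peak of any other target in any library. Both states were counted in members only, and KO H3K4me1 alone was called at just 13.2% of all H3K27ac regions. The counts therefore do not show that members lacked these peaks more often than other regions.

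Few members lay at promoters. Within 1 kb of the start of a protein-coding gene, taking the first start that the RefSeq table lists for it, lay 53 (5.05%, 3.88 to 6.54), beside 39.3% of retained and 8.48% of all H3K27ac regions. With every listed start, an alternative chosen after the data were seen, 64 did (6.10%, 4.80 to 7.71), beside 41.9% of retained and 9.32% of all regions. The share of lost regions by that measure was 5.14%, inside the interval of the members. Inside a gene span lay 498 (47.4%), a share that was not measured for other regions. A gene end was within 100 kb of 783 (74.6%), beside 87.5% of all regions. Of the 53, 38 had H3K4me3 in at least 1 list. After KLRC2, the highest lower folds among the 53 were at PRR23D1, MBNL2, KPNA5 and ADSS2. A further start of DNAJB4, a heat shock cochaperone gene, lay inside the region at chr1:78004411-78005520, whose folds of 6.25 and 12.87 placed it between KPNA5 and ADSS2. PRR23D1 belongs to a multicopy family on chromosome 8, so its folds of 7.56 and 8.10 are uncertain. At MBNL2, chr13:97141120-97142644 spans the start printed above, with H3K4me3 at 23.25- and 27.94-fold in WT and 57.92- and 8.31-fold in KO. The region 798 bp from KPNA5, an importin gene, had H3K27ac folds of 6.91 and 6.81 and strong H3K4me3 in all 4 lists (78.95 to 111.92). At ADSS2, an adenosine nucleotide synthesis gene, the folds were 5.84 and 10.33, and H3K4me1 was called in KO only (3.29-fold).

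By nearest gene within 100 kb, 636 of 17338 protein-coding genes with an H3K27ac region had at least 1 member (3.67%), and 546 of them had exactly 1. LYPLAL1 had 10, PCDH7 had 7, and ZC3H11B, SCG2 and IFNE had 6 each. RPS6KC1, TANK, SAMD13 and ITPRID2 followed with 5 each, and 6 genes had 4: KLHL42, PRKACB, ANXA1, JUN, ARHGAP18 and MTAP. These genes also kept or lost other H3K27ac regions. PRKACB, a catalytic subunit of protein kinase A, had 11 retained and 3 lost regions beside its 4 members, while RPS6KC1, a kinase-related gene, had 2 retained, none lost and 5 members. SCG2, which encodes a secretogranin, had 8 retained and 2 lost, and ANXA1, which encodes annexin A1, had none retained and 2 lost.

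Of 122 entries with an H3K27ac region in 7 gene lists, 10 genes had a member (8.2%), beside the 3.67% of all genes with a region. The lists were chosen with earlier results of these data known, so this share is no independent evidence, and no test was made. Of 24 p53 target genes (8.33%) SESN2 and KITLG had 1 member each, neither with a p53 peak. The SESN2 member, 1602 bp from the start, had H3K27ac folds of 3.61 and 3.75, H3K4me1 in both genotypes and H3K4me3 of 173- to 259-fold in WT replicate 2 and both KO lists. Of 18 AP-1 and immediate early genes JUN, FOS and IER3 (16.7%) had 6 members together. The 4 near JUN had lower KO folds from 2.81 to 4.86 and no peak of any other target, and the 1 near FOS had H3K27ac folds of 5.46 and 5.53 with H3K4me1 in both genotypes. Of 16 interferon and NF-kB genes 2 had members (12.5%): IFNE had 6, and TNFAIP3, an inhibitor of NF-kB, had 1 (folds of 3.90 and 2.41). Of 15 cadherin and protocadherin genes with a region, 2 had members (13.3%): PCDH7 had 7 and CDH12 had 1 (folds of 7.26 and 6.63), which was 110162 bp from any WT peak. Among 20 Wnt and colon epithelium genes EPCAM had 1. None of 18 TGF-beta and mesenchymal genes and none of 11 H3K4 methyltransferase and cofactor genes had any.

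Many members lay in groups. Another member was within 50 kb of 323 (30.8%, 28.04 to 33.6). The same held for 86.4% of the 30215 other regions called in both KO lists, a set so much denser that the shares cannot be set against each other. With gaps of at most 50 kb, 153 members fell into 34 clusters of 3 or more, spanning 6.31 to 105 kb, and 10 of the clusters were on chromosome 1. No lost region lay in 27 of the 34. A lost region needs peaks in both WT lists, so the 13 clusters without a WT replicate 2 peak could hold none. The clusters are built from regions absent from WT lists, so their H3K27ac is given as a description. H3K27ac peaks covered 198 and 69.6 kb of the clusters in WT replicates 1 and 2, and 366 and 437 kb in KO. Both KO libraries covered more than both WT libraries in 32 of 34. WT replicate 1 covered more than WT replicate 2 in 28 and less in 3, and 13 clusters had no peak in WT replicate 2 while 5 had none in WT replicate 1.

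**Figure D3:**
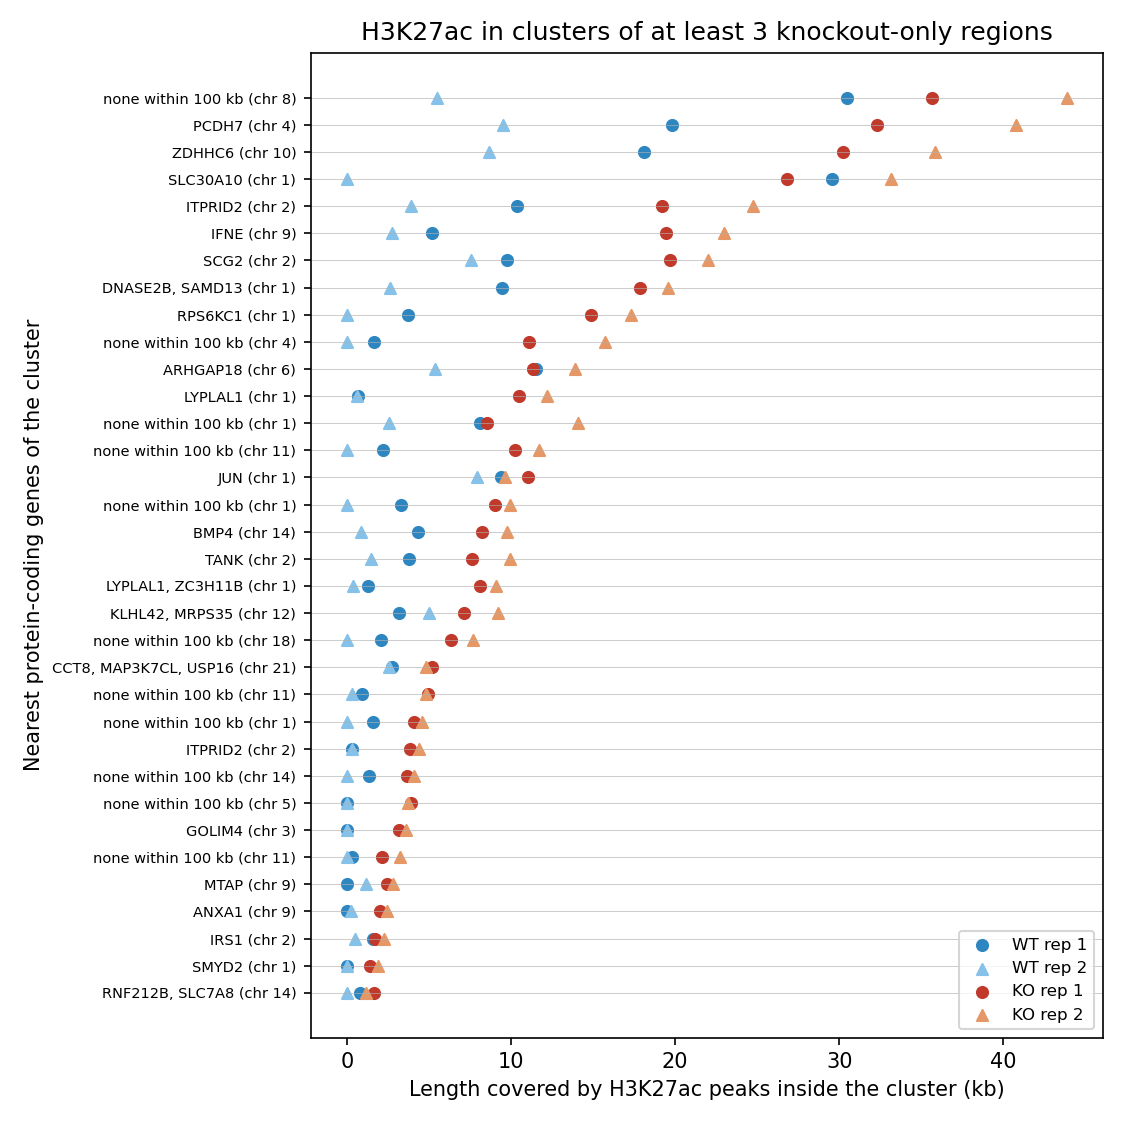
Length covered by H3K27ac peaks (kb, horizontal) in each of the 34 clusters of at least 3 knockout-only regions (vertical, named by their nearest genes), with 1 point per library. KO points lie to the right of both WT points in 32 clusters, and WT replicate 1 lies to the right of WT replicate 2 in 28.

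The other targets, which the rule did not use, differed in direction within the clusters. H3K4me1 had 262 peaks in WT and 116 in KO within the 34 spans. This ratio of 0.443 stood beside 0.349 over all autosomal peaks, so the number of peaks fell less here. KO had fewer H3K4me1 peaks in 28 clusters, as many in 5 and more in 1. Such counts leave out peak width: over all autosomes H3K4me1 peaks covered 214 Mb in WT and 49.0 Mb in KO. The length that H3K4me1 covered within the clusters was not measured. MLL1 had 133 peaks in WT and 38 in KO, a ratio of 0.286 beside 0.783 over all autosomal peaks, with fewer in KO in 22 clusters and more in 2. Over all autosomes, however, MLL1 peaks were wider in KO, with a median of 702 bp against 307 bp in WT. They covered 29.2 Mb in KO and 21.1 Mb in WT. Counts of MLL1 peaks here and in the groups described below therefore do not measure the length covered. H3K4me1 and MLL1 each have 1 library per genotype. p53 had 10 and 10 peaks in the WT libraries and 11 and 23 in the KO ones, and H3K4me3 had 25 and 27 in WT against 22 and 7 in KO; neither difference was tested. No WT MLL4 peak lay in 19 clusters, and no p53 peak of any list in 21. Spans of like length elsewhere were not counted, so these numbers are a description only.

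The longest group was on chromosome 1. With gaps of up to 100 kb, 22 members lay at chr1:219304478-219813611, from inside LYPLAL1 past ZC3H11B, a zinc finger gene, towards SLC30A10, a manganese exporter. Over this span of 509 kb H3K27ac peaks covered 60.4 and 1.02 kb in WT replicates 1 and 2 and 76.3 and 95.3 kb in KO. The WT signal was not spread evenly. In the 40.04 kb at chr1:219404649-219444691, with 8 members inside LYPLAL1, WT coverage was 0.690 and 0.642 kb against 10.5 and 12.2 kb in KO. In the next 7 members, over 62.3 kb, it was 1.26 and 0.373 kb against 8.09 and 9.09 kb. In the 71.4 kb at chr1:219742170-219813611 on the SLC30A10 side, WT replicate 1 covered 29.6 kb, between KO replicate 1 at 26.8 and KO replicate 2 at 33.2 kb, and WT replicate 2 covered none. H3K4me1 lay at 14 of the 22 members in WT and at 4 in KO.

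**Figure D4:**
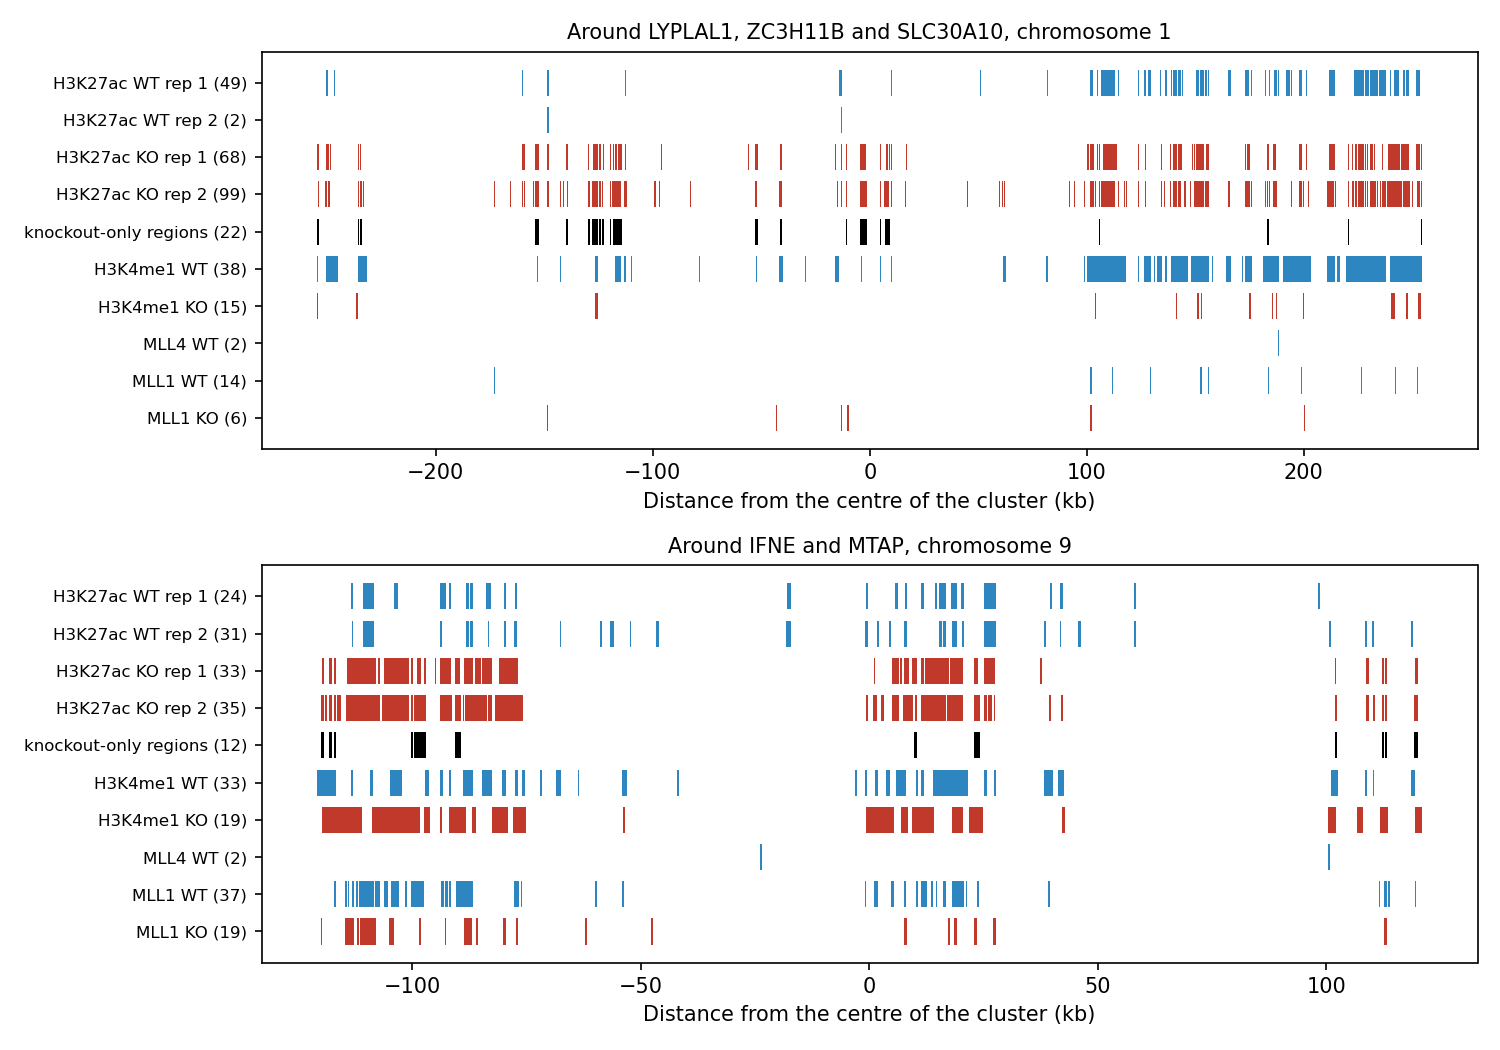
Positions of peaks in each list (rows, with the number of peaks) around LYPLAL1, ZC3H11B and SLC30A10 and around IFNE and MTAP, as distance in kb from the centre of the cluster; very short peaks are drawn 0.4 kb wide so that they can be seen. In the upper map WT replicate 1 has peaks mostly to the right and WT replicate 2 has 2, and in the lower map H3K4me1 of KO lies under all 12 knockout-only regions.

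On chromosome 4, 12 members lay at chr4:30752665-30857929 inside PCDH7, a protocadherin of the cell surface, 5 of them over 100 kb from either gene end. H3K27ac covered 19.8 and 9.50 kb of the whole span in WT and 32.3 and 40.7 kb in KO, and the lower KO fold of the members reached 7.60. H3K4me1 had 31 peaks in WT and 9 in KO, and MLL1 had 13 and 2. All 12 lay within 1526 bp of a WT H3K27ac peak, so they filled a span that was already acetylated in part.

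On chromosome 9, 12 members lay at chr9:21549324-21789299 between IFNE, which encodes an epithelial type I interferon, and MTAP, an enzyme gene of methionine salvage. H3K27ac covered 19.4 and 18.9 kb of the whole span in WT and 48.2 and 56.9 kb in KO, so here the WT libraries were close. H3K4me1 lay at all 12 in KO and at 7 in WT. At the 6 members nearest to IFNE the KO H3K4me1 folds were 3.37 to 4.76. MLL1 had 37 peaks over the span in WT and 19 in KO. At chr9:21578724-21580096, where H3K27ac was 5.62 and 8.09 in KO, the overlapping WT MLL1 peak had a fold of 26.86. That peak ran from −90.4 to −86.7 kb of the cluster centre, while the member ended at −89.2 kb. No KO MLL1 peak overlapped the member, but a KO peak from −88.7 to −86.9 kb lay within the WT peak.

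Other groups differed in how much WT signal they held. The whole span of the 5 members in RPS6KC1, chr1:213724404-213827463, had H3K27ac over 3.74 and 0 kb in WT and 14.9 and 17.3 kb in KO. None of these 5 members overlapped an H3K4me1 peak in KO. The span of the 3 at GOLIM4, chr3:168002862-168034817, had 0 kb in both WT libraries and 3.19 and 3.57 kb in KO. H3K4me1 lay at all 3 members in WT and at none in KO. The span of the 6 near SCG2, chr2:223488121-223579437, had 9.73 and 7.58 kb in WT and 19.7 and 21.97 kb in KO. At TANK, 5 members lay over 17.9 kb that end at its start, a span with 3.79 and 1.497 kb in WT and 7.65 and 9.93 kb in KO. H3K4me1 lay at 4 of these members in WT and at 1 in KO. Around JUN the 4 members spanned 99.0 kb, where coverage was 9.39 and 7.90 kb in WT and 11.04 and 9.63 kb in KO, so the libraries hardly parted there.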

How the data were processed

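ChIP-seq of HCT116 cells gave 18 peak lists, H3K4me1 as broad peaks and the rest narrow; 2 input libraries were not analysed here. Peaks were called with MACS2 2.1.1 on hg38, per the submitters' processing notes, and the deposited peak names show each library called alone against the input of its genotype. The deposited columns hold, per peak, the authors' score, the fold ratio over local background, and −log10 p-value and q-value; these are the caller's values for that peak, and read depth is not given in the sources used here. Aligner and call options are likewise not given.

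Regions were merged and counted with Python 3.11.15, pandas 2.3.3 and numpy 2.4.6, and the rule was checked on simulated lists. A region's fold is its highest peak's. A mark was present where a peak overlapped by at least 1 bp. Shares have 95% Wilson intervals (scipy 1.17.1), which cover counting error only. Counts over p53 and H3K4me3 libraries were compared by an exact permutation test. Genes and sequences come from RefSeq (GRCh38.p14): of 19122 autosomal protein-coding genes 15100 had a start (the first listed was used), and both ends were used for the others. Exons were not annotated. Named are the 12 genes with most members, those of the 10 highest folds (1 is not reported here), of 5 promoter members and of members with H3K4me1, MLL1 and p53 in KO, and listed genes with a member; clusters and further examples were chosen after their values were seen. The members and lists were chosen with earlier results of these data known. Alternatives were stricter q-values, distance from WT peaks, equal list lengths, wider overlaps and leaving out libraries.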

Additional observations from a re-analysis of the deposited data

How the results depend on the processing

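The number of members depended most on the lists. It was 283 when both KO peaks had to reach a −log10 q-value of 5, 557 at 1 kb or more from every WT peak, 2722 with lists of equal length (61228 peaks), and 1727 to 6069 when 1 H3K27ac library was left out, the highest without KO replicate 1, where 1 KO list alone decides. In the same order the share with KO H3K4me1 was 50.5%, 33.9%, 33.5% and 21.7% to 42.7%; 49.1% had a peak within 1 kb. KO MLL1 ranged from 2.65% to 7.998% without 1 library and was 16.5% within 1 kb. WT MLL4 was 3.53% at the stricter q-value, 7.14% within 1 kb and 1.27% to 2.59% without 1 library. Neighbours within 50 kb were 21.2%, 27.7%, 40.3% and 33.3% to 52.4% in that order, with 39.0% at 100 kb and 25.3% at 25 kb. Promoter shares were 6.71% at the stricter q-value, 2.15% away from WT peaks, 11.9% within 2 kb and 3.46% to 5.46% without 1 library. The p53 difference kept its sign in all 14 alternatives (log2 0.44 to 1.41 without 1 library). The H3K4me3 difference turned to −0.14 at the stricter q-value and ran from −0.44 to 0.56 without 1 library. With the replicate number as a replicate block (the numbers are only shared, with nothing that pairs the cultures) the p53 difference was 0.93 with p = 0.5 and that of H3K4me3 0.06 with p = 1 (exact permutation, smallest possible 0.5). The causes were not tested.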

Other observations

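The members were spread unevenly over the chromosomes. Among regions called in both KO lists, the share that was knockout-only was 6.59% on chromosome 4 (61 of 926, 95% Wilson interval 5.16 to 8.37), 5.30% on chromosome 13, 5.29% on chromosome 18 and 5.03% on chromosome 14. It was 1.25% on chromosome 16, 1.24% on chromosome 17 and 0.379% on chromosome 19 (8 of 2113, 0.192 to 0.745). Chromosome 4 also had one of the highest shares of WT regions that were lost, 62.8%, beside 51.1% on chromosome 19. Over all autosomes that share ran from 41.15% on chromosome 21 to 65.19% on chromosome 18.

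Around the POU5F1B gene, at chr8:127035047-127349599, 8 members lay within 315 kb. H3K27ac covered 45.8 and 7.16 kb there in WT replicates 1 and 2 and 55.0 and 71.1 kb in KO. H3K4me1 lay at all 8 members in WT and at 1 in KO, and MLL1 had 30 peaks in WT and 4 in KO.

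Near BMP4, which encodes a bone morphogenetic protein, 4 members lay at chr14:53838891-53881881. H3K27ac covered 4.35 and 0.850 kb of the whole span in WT and 8.25 and 9.73 kb in KO. H3K4me1 lay at all 4 members in WT and at none in KO. Near ITPRID2, H3K4me1 lay in both genotypes at all 6 members of both clusters.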
